A study of Mus musculus with 6 samples.

Results

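Semaphorins, ephrins and Slits are guidance cues, and plexins, neuropilins, Eph receptors and Robo proteins are the receptors that read them. Transcripts of these families were measured by RNA-seq in primary mouse uterine stromal cells with and without Pbrm1, which encodes a subunit of the PBAF form of the SWI/SNF chromatin remodeler. Members were all protein-coding genes whose symbols carry a family name (Sema3 to Sema7, Plxn, Nrp, Epha, Ephb, Efna, Efnb, Slit or Robo with their letters and numbers). This gave 60 of the 54232 genes in the count table and of its 21983 protein-coding genes. They comprised 20 semaphorins, 9 plexins, 2 neuropilins, 14 Eph receptors, 8 ephrins, 3 Slits and 4 Robo genes.

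The study asked what stromal Pbrm1 is needed for around embryo implantation, and the comparison asked which guidance genes differed without it. The control group, labeled WT, held 3 libraries, and the study describes its controls as Pbrm1 fl/fl females, which carry loxP sites in both Pbrm1 alleles and no Cre. The group labeled Pbrm1 cKO, also 3 libraries, carried the same floxed alleles plus 1 PR IRES-cre allele, which drives Cre from the progesterone receptor locus. That Cre acts wherever the receptor is made, so deletion was not limited to the stroma and could reach the uterine epithelium and the ovary. All females were 8 to 12 weeks old and at day 4 of pseudopregnancy, although another label calls it day 4 of pregnancy. From 5 to 10 uterine horns were pooled, digested with enzymes, strained, plated for 4 h and kept for 2 h more in fresh medium before RNA was taken, and the cells were not sorted. The protocol text on all 6 libraries names WT horns. A legend of the study calls the 3 replicates of its sequencing tracks biological, while the labels do not say that the libraries of a group came from separate pools of animals. If they did not, p-values measure only the spread between these libraries, which may be technical.

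As background, class 3 semaphorins are secreted and signal through plexins, mostly with a neuropilin as co-receptor, whereas classes 4 to 7 are membrane-bound in mammals and mostly bind plexins directly. Eph receptors are receptor tyrosine kinases that meet ephrins on the neighboring cell, and signals pass into both cells. Slits are secreted proteins that bind Robo receptors. First described in axon guidance, these families also act in blood vessel growth, in the sorting and contact of cells in tissues, and in the movement of leukocytes.

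Library totals ranged from 13253575 to 18338667 counts. Pbrm1 (chromosome 14, 31019138 to 31121592, GRCm38/mm10) had 1354, 1385 and 1677 normalized counts in WT against 397, 459 and 451 in Pbrm1 cKO. Its groups stood far apart, with 29.6% of the WT level left in Pbrm1 cKO (log2 fold change -1.76, SE 0.13, DESeq2 adjusted p = 5.19e-40). Normalized counts are raw counts divided by a size factor for each library, and a gene was called when its DESeq2 adjusted p over all genes was under 0.05. The WT libraries varied more than the Pbrm1 cKO libraries (biological coefficient of variation 0.16 against 0.0465), and WT replicate 1 differed from the other WT libraries in many genes.

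Of the 60 guidance genes, 59 had a count, 53 were tested and 28 were called, 17 higher and 11 lower in Pbrm1 cKO. Over all 17474 tested genes, 31.1% were called, 15.9% higher and 15.2% lower. Among tested protein-coding genes with a mean of at least 20 normalized counts, where power is more alike, 40.5% were called, and 26 of the 41 guidance genes at that level (63.4%) were. Among called members, most of the 6 with the largest increases were semaphorins: Sema4d, Sema7a, Sema4g and Sema4a, with the plexin Plxnc1 and the ligand Slit2. Among the genes that fell were 4 semaphorins with large changes (Sema3b, Sema3g, Sema5a and Sema6c), the ligand Efna1 and 3 Eph receptors. Members of the semaphorin system, plexins and neuropilins included, were called 13 times as higher and 5 times as lower among 30 tested, and Eph receptors and ephrins 1 time as higher and 5 times as lower among 18. The median log2 fold change over the 53 tested members was 0.22, against -0.00 over all tested genes. Fewer cells of a type and less RNA per cell cannot be told apart in such bulk libraries.

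Libraries of WT and Pbrm1 cKO were fully apart in 30 of the 53 tested members and in 48.6% of all tested genes. Of the 28 called members 25 were fully apart, as were 98.3% of all called genes. The 3 called members whose groups overlapped were Efna1, Sema3g and Sema6d, in each of which WT replicate 1 lay within or below the Pbrm1 cKO range. With the trend of each library with gene length removed, 12 members were higher and 12 lower, so that 50% of called members were higher in place of 60.7%. Over all called genes the same removal moved the share that was higher from 51.1% to 45.1%. That correction ended the calls of Plxnb1, Robo2, Sema3a, Sema3c and Slit3 and added Plxna3, which was lower.

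**Figure D1:**
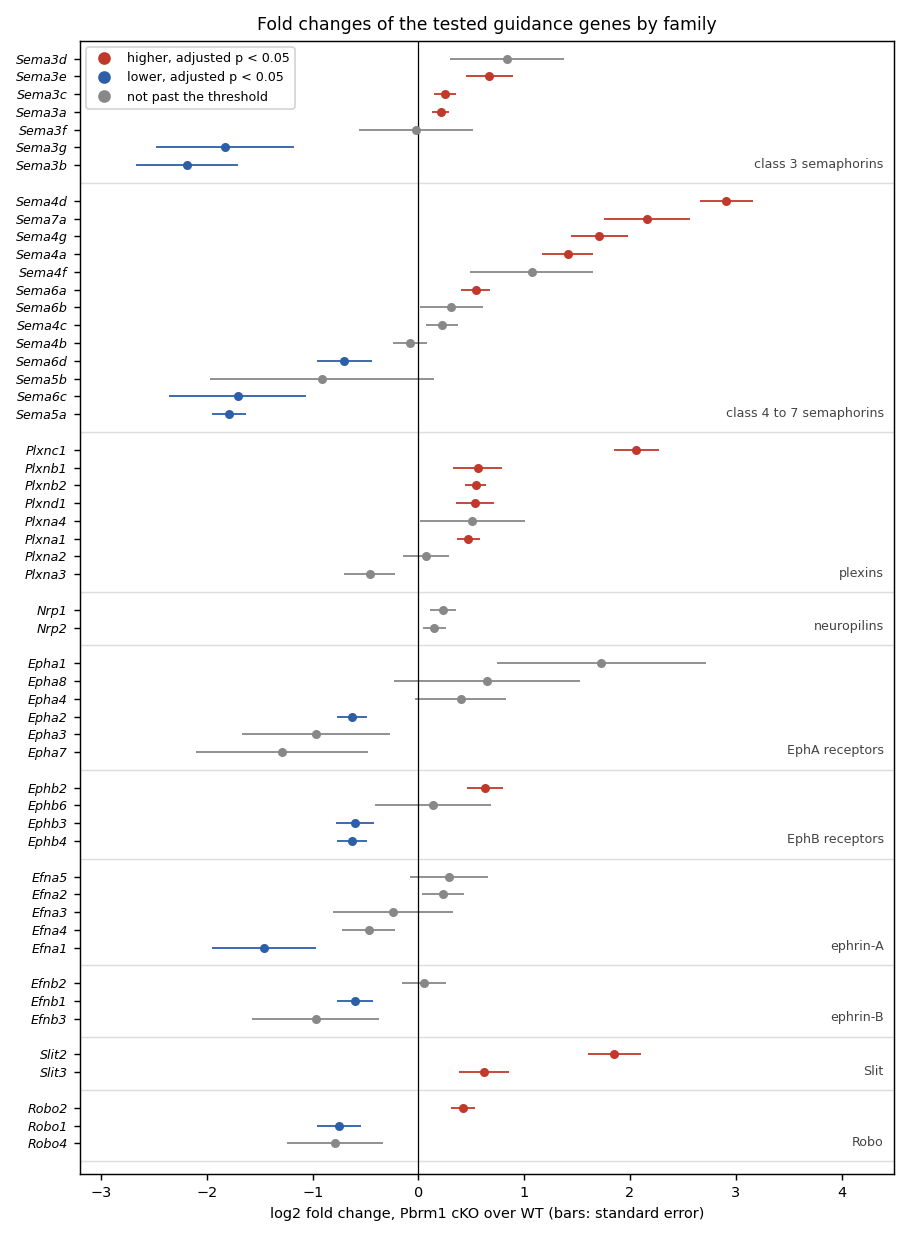
Log2 fold change of Pbrm1 cKO over WT (x axis) for the 53 tested guidance genes (y axis), grouped by family. Points are DESeq2 estimates, bars are standard errors, and color marks genes higher (17), lower (11) or not past an adjusted p of 0.05. Plexins hold no lower call and neuropilins no call, beside 15.9% higher and 15.2% lower over all tested genes.

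To show where genes with large changes begin, the 250 bases before the RefSeq start are given for Sema7a (chr9:57939862-57940111, plus strand), Plxnc1 (chr10:94944846-94945095, minus strand), Slit2 (chr5:47982905-47983154, plus strand) and Sema5a (chr15:32244563-32244812, plus strand), in GRCm38.p6. Among called members with a mean of at least 20 and a single start in the RefSeq table, they are the 3 that rose most and the 1 that fell most, printed 5′ to 3′ on the strand of the gene. Capitals mark E-boxes, the motif of basic helix-loop-helix factors, spelled CANNTG.
Sema7a: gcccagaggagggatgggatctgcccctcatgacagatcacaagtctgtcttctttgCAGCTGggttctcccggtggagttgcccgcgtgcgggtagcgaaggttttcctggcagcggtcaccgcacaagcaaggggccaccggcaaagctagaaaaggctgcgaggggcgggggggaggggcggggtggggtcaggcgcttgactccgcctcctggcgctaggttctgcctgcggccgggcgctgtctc
Plxnc1: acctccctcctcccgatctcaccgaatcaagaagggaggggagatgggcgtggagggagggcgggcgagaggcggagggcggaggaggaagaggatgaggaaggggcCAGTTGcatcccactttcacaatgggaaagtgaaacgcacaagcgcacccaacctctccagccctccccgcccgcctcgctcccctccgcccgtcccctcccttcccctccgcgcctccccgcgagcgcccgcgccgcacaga
Slit2: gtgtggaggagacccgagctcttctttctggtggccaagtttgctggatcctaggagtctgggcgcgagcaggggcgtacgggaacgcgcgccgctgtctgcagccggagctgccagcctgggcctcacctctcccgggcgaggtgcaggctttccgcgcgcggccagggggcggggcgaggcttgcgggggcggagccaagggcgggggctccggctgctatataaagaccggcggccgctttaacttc
Sema5a: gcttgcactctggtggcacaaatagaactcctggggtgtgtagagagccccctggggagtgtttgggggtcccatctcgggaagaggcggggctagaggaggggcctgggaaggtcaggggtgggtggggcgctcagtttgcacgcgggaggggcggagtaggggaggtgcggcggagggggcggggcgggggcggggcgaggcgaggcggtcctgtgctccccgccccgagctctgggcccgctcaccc
The Sema7a and Plxnc1 windows held 1 E-box each, and those of Slit2 and Sema5a held 0. Of 32851 such windows in the table, 66.2% held an E-box. No AP-1 motif (TGANTCA, 6.75% of windows) and no hormone response half-site (TGTTCT, 16.1% of windows, both strands searched for each motif) was present in the 4. CpG dinucleotides numbered 17 in Sema7a, 22 in Plxnc1, 25 in Slit2 and 17 in Sema5a, against a median of 6 over all windows. Of the 19 called members with a mean of at least 20 at either end of the ranking by log2 fold change, 14 had a single start. They included smaller changes such as Plxnb1 (0.56). An E-box was present in 5 of 8 windows of their higher genes and in 3 of 6 of their lower genes.

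Semaphorins of classes 4 to 7 held the largest increases, with 5 of 13 tested members higher and 3 lower. Sema4d (chromosome 13, 51685529 to 51793747), a ligand of Plxnb1 that was first known from T cells, had 35.3, 82.1 and 90.8 normalized counts in WT against 515, 563 and 481 in Pbrm1 cKO. Each Pbrm1 cKO library lay several times above each WT library, and the level was 7.49 times that of WT (log2 fold change 2.91, SE 0.25, adjusted p = 1.47e-28). Sema7a (chromosome 9, 57940112 to 57962865), which is anchored to the membrane by a lipid and binds Plxnc1 and integrins, had 341, 454 and 862 in WT against 2516, 2573 and 2312 in Pbrm1 cKO. Its WT libraries spread widely, with WT replicate 3 the highest, and still lay far below Pbrm1 cKO (4.47-fold, log2 fold change 2.16, SE 0.41, adjusted p = 2.34e-06). Sema4g (chromosome 19, 44989101 to 45003397), a ligand of Plxnb2, had 35.3, 28.9 and 33.5 in WT against 105, 118 and 95.7 in Pbrm1 cKO. Sema4a (chromosome 3, 88435959 to 88461182), known from dendritic and T cells, had 47.0, 42.2 and 46.5 in WT against 129, 120 and 112 in Pbrm1 cKO. Both were tight within groups and clearly apart between them, at 3.26-fold (log2 fold change 1.71, SE 0.27, adjusted p = 6.48e-09) and 2.66-fold (log2 fold change 1.41, SE 0.24, adjusted p = 7.15e-08). The remaining increase was that of Sema6a, a transmembrane ligand of class A plexins (log2 fold change 0.54, SE 0.14, adjusted p = 0.00125).

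Lower members of these classes were Sema5a, Sema6d and Sema6c. Sema5a (chromosome 15, 32244810 to 32696341), a transmembrane semaphorin with thrombospondin repeats, had 402, 505 and 476 normalized counts in WT against 148, 131 and 121 in Pbrm1 cKO. The groups were far apart (log2 fold change -1.79, SE 0.16, adjusted p = 3.48e-26). Sema6d (chromosome 2, 124089969 to 124667770), a ligand of Plxna1, had 189, 439 and 326 in WT against 205, 195 and 189 in Pbrm1 cKO. Here WT replicate 1 was as low as Pbrm1 cKO (log2 fold change -0.70, SE 0.26, adjusted p = 0.0241). Sema6c was low in all libraries, at 12.8, 30.0 and 23.8 in WT against 7.89, 2.40 and 10.3 in Pbrm1 cKO (log2 fold change -1.71, SE 0.65, adjusted p = 0.0287). The 5 members of these classes not called were Sema4b, Sema4c, Sema4f, Sema5b and Sema6b, with log2 fold changes from -0.91 in Sema5b to 1.07 in Sema4f. Sema4b and Sema4c were well measured, with Sema4b at 313 ± 54.1 normalized counts in WT against 297 ± 7.48 in Pbrm1 cKO and Sema4c at 259 ± 27.2 against 303 ± 25.7 (SD, n = 3 each), and their groups overlapped.

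Class 3 semaphorins moved both ways, with 3 of 7 tested members higher and 2 lower. Sema3a (chromosome 5, 13125414 to 13602565), the founding repellent cue that signals through Nrp1, had the most counts of the family, with 9357, 9551 and 10045 in WT against 11371, 11421 and 10659 in Pbrm1 cKO. The groups were apart by a small margin (1.16-fold, log2 fold change 0.21, SE 0.08, adjusted p = 0.0309). Sema3e (chromosome 5, 14025276 to 14256689), which binds Plxnd1 without a neuropilin, had 93.0, 77.7 and 110 in WT against 147, 171 and 129 in Pbrm1 cKO, with no overlap (log2 fold change 0.67, SE 0.22, adjusted p = 0.0104). Sema3c passed narrowly (1684 ± 152 normalized counts in WT, 1995 ± 43.1 in Pbrm1 cKO, log2 fold change 0.25, SE 0.10, adjusted p = 0.0496). These 3 genes lie near each other on chromosome 5 together with Sema3d, within 5.35 Mb from 12383385 to 17730268. Sema3d was low, at 9.62, 8.88 and 11.9 in WT against 14.8, 20 and 19.7 in Pbrm1 cKO, and was not called (log2 fold change 0.84, SE 0.54, adjusted p = 0.245). With the length trend removed, the log2 fold change of Sema3a was 0.02 (adjusted p = 0.852) and that of Sema3c 0.14 (adjusted p = 0.364).

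The class 3 members that fell lie on other chromosomes and had low counts. Sema3b (chromosome 9, 107597674 to 107609229), a secreted ligand that uses neuropilins, had 40.6, 38.8 and 30.3 normalized counts in WT against 4.93, 9.59 and 9.38 in Pbrm1 cKO. Every Pbrm1 cKO library lay well below every WT library (log2 fold change -2.19, SE 0.48, adjusted p = 5.01e-05). Sema3g, which is made by endothelial cells in many tissues, had 8.55, 53.3 and 30.3 in WT against 5.92, 9.59 and 10.3 in Pbrm1 cKO, and WT replicate 1 lay within the Pbrm1 cKO range (log2 fold change -1.83, SE 0.65, adjusted p = 0.0193). Leaving out WT replicate 1 gave a log2 fold change of -2.27, and leaving out WT replicate 2 gave -1.17, which did not pass (adjusted p = 0.286). Sema3f, a neighbor of Sema3b on chromosome 9, had 7.48, 33.3 and 36.8 in WT against 29.6, 26.4 and 20.6 in Pbrm1 cKO and was not called (log2 fold change -0.02).

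Plexins, the semaphorin receptors, were higher or not called, with 5 of 8 tested members higher and none lower. The shares over all tested genes were 15.9% higher and 15.2% lower, so the lack of lower calls among 8 genes says little. At an unadjusted p under 0.05 DESeq2 gave 0 lower plexins, and edgeR and limma voom also called 0 as lower. Plxnc1 (chromosome 10, 94790866 to 94944835), the receptor of Sema7a, had 40.6, 54.4 and 55.1 normalized counts in WT against 208, 215 and 202 in Pbrm1 cKO. All Pbrm1 cKO libraries lay close together and far above WT (4.16-fold, log2 fold change 2.06, SE 0.21, adjusted p = 5.76e-20). Plxnb2 (chromosome 15, 89155549 to 89180788), a receptor of class 4 semaphorins and the plexin with the highest level, had 1989, 1768 and 1852 in WT against 2951, 2713 and 2517 in Pbrm1 cKO, without overlap (log2 fold change 0.54, SE 0.10, adjusted p = 1.24e-06). Plxnb1 (chromosome 9, 109095389 to 109119917), the main receptor of Sema4d, had 100, 78.8 and 76.7 in WT against 112, 119 and 147 in Pbrm1 cKO, a difference that passed narrowly (log2 fold change 0.56, SE 0.23, adjusted p = 0.0438). Plxna1, a receptor used with neuropilins by class 3 semaphorins and by Sema6d, had 1606 ± 179 against 2221 ± 55.3 (log2 fold change 0.47, adjusted p = 0.000138), and Plxnd1, the Sema3e receptor known from endothelium, 386 ± 94.9 against 556 ± 13.6 (log2 fold change 0.53, adjusted p = 0.0135).

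Plxna2, Plxna3 and Plxna4, class A receptors, were not called, with log2 fold changes of 0.07, -0.46 and 0.51. Plxna4 had 10.7 normalized counts in WT replicate 1 and 72.1 and 73.5 in the other WT libraries, against 68.5 to 85.5 in Pbrm1 cKO. Plxna3 passed as lower with the length trend removed (log2 fold change -0.58, adjusted p = 0.049) and without WT replicate 3 (-0.65, adjusted p = 0.0177). Plxnb3 had at most 2 counts in a library and was not tested. Of the neuropilins, the co-receptors of class 3 semaphorins and of VEGF, Nrp1 (chromosome 8, 128358604 to 128503363) had 3292, 2677 and 2513 in WT against 3473, 3429 and 3068 in Pbrm1 cKO. Its groups overlapped and it was not called (log2 fold change 0.23, SE 0.12, adjusted p = 0.144), but it passed without WT replicate 1 (0.36, adjusted p = 0.00062). Nrp2 had 895 ± 40.3 in WT and 992 ± 82.5 in Pbrm1 cKO (log2 fold change 0.15, adjusted p = 0.343), and neither neuropilin had an unadjusted p under 0.05 or was called by edgeR or limma voom.

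**Figure D2:**
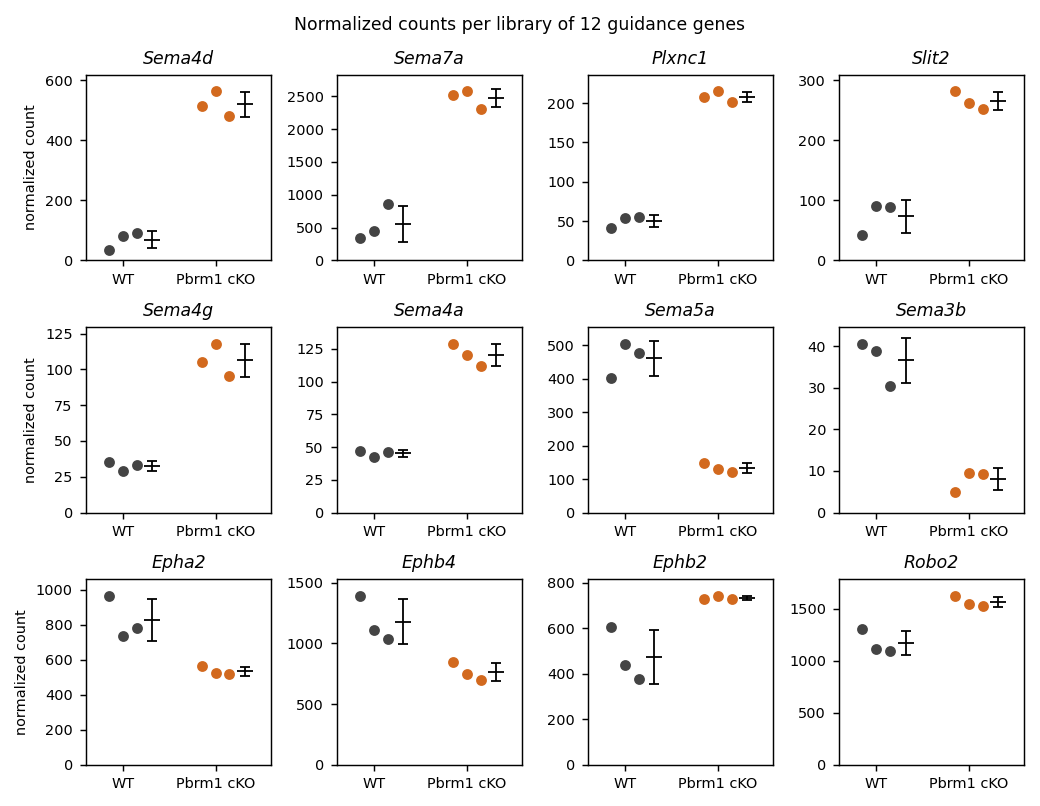
Normalized counts (y axis, from 0) of 12 guidance genes in each of the 3 WT and 3 Pbrm1 cKO libraries (x axis). Points are libraries, and the bar beside them is the mean with its SD. All 12 were picked from the called members, and in none do the groups overlap, as in 98.3% of all called genes. Sema4d (35.3 to 90.8 against 481 to 563) is the most widely parted of those that rose.

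Among Eph receptors, 1 of 10 tested members was higher and 3 were lower, beside 15.9% higher and 15.2% lower over all tested genes. Epha2 (chromosome 4, 141301240 to 141329384), the receptor with the highest level among the A class, had 965, 735 and 779 normalized counts in WT against 564, 523 and 518 in Pbrm1 cKO. Ephb4 (chromosome 5, 137350109 to 137378669), the receptor of ephrin-B2 known from veins, had 1392, 1110 and 1038 in WT against 849, 749 and 696 in Pbrm1 cKO. In both genes all Pbrm1 cKO libraries were below all WT libraries, at 0.648 of the WT level, with log2 fold changes of -0.63 (SE 0.14, adjusted p = 3.36e-05) and -0.63 (SE 0.14, adjusted p = 9.01e-05). Ephb3 (chromosome 16, 21204755 to 21223305), a receptor of B-class ephrins, had 406, 291 and 322 in WT against 244, 192 and 236 in Pbrm1 cKO (log2 fold change -0.60, SE 0.18, adjusted p = 0.00382). Ephb2 (chromosome 4, 136647539 to 136835988), a close relative that binds the same ephrins, went the other way, with 604, 439 and 376 in WT against 728, 743 and 731 in Pbrm1 cKO. The Ephb2 groups did not overlap, although WT replicate 1 came near them (1.55-fold, log2 fold change 0.63, SE 0.17, adjusted p = 0.00108).

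The other Eph receptors had few counts. Epha4 was at 29.5 ± 14.8 in WT and 38.9 ± 6.90 in Pbrm1 cKO (log2 fold change 0.40, adjusted p = 0.546), with 13.9 in WT replicate 1. Epha1, Epha3, Epha7, Epha8 and Ephb6 had means from 2.56 to 17.2 normalized counts in a group, and none was called (log2 fold changes -1.29 in Epha7 to 1.73 in Epha1). Epha6, Epha10 and Ephb1 had at most 2 counts in a library and were not tested, and Epha5 had none. A library count of 0 allows up to 3 counts, so a difference in Epha5, Epha6, Epha10 or Ephb1 was not detectable at this depth.

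Ephrins, the ligands of Eph receptors, held 2 lower and no higher calls among 8 tested. The shares over all tested genes were 15.2% lower and 15.9% higher, so the lack of higher calls among 8 genes says little. At an unadjusted DESeq2 p under 0.05 the higher ephrins were also 0, as with edgeR and limma voom. Efnb1 (X chromosome, 99136130 to 99148991), which encodes the transmembrane ligand ephrin-B1, had 751, 506 and 518 normalized counts in WT against 389, 406 and 375 in Pbrm1 cKO. The groups were apart (log2 fold change -0.60, SE 0.17, adjusted p = 0.00228). Efna1 (chromosome 3, 89271733 to 89281142), the ligand of Epha2 linked to the membrane by a lipid anchor, had 24.6, 124 and 141 in WT against 29.6, 43.1 and 31.9 in Pbrm1 cKO. WT replicate 1 was below every Pbrm1 cKO library while the other WT libraries were well above (log2 fold change -1.46, SE 0.49, adjusted p = 0.0129). Efna2 (chromosome 10, 80179482 to 80190010), the A-class ephrin with the highest level, had 246, 162 and 186 in WT against 239, 203 and 257 in Pbrm1 cKO, with overlap (log2 fold change 0.23, SE 0.20, adjusted p = 0.419). Efnb2, the ligand of Ephb4 known from arteries, had 605 ± 208 in WT, where replicate 3 stood highest at 841, and 628 ± 38.3 in Pbrm1 cKO (log2 fold change 0.05, adjusted p = 0.885). Without WT replicate 3 it passed as higher (0.36, adjusted p = 0.0229), and the A-class ligand Efna4 passed as lower (-0.63, adjusted p = 0.0492, against -0.47 and 0.14 with all libraries). Efna3, Efna5 and Efnb3 were not called, with log2 fold changes of -0.24, 0.29 and -0.97.

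Both tested Slit ligands were higher. Slit2 (chromosome 5, 47983138 to 48307733) had 41.7, 89.9 and 88.6 normalized counts in WT against 281, 262 and 251 in Pbrm1 cKO. WT replicate 1 was the lowest, and the groups were far apart (3.61-fold, log2 fold change 1.85, SE 0.25, adjusted p = 6.27e-12). Slit3 (chromosome 11, 35121224 to 35708507) had 156, 128 and 86.5 in WT against 227, 182 and 160 in Pbrm1 cKO, close to each other at the edge (log2 fold change 0.62, SE 0.24, adjusted p = 0.0363). Slit1 had at most 6 counts in a library and was not tested.

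Their receptors Robo1 and Robo2 went in opposite directions. Robo2 (chromosome 16, 73891839 to 74411825), which carried most of the Robo signal, had 1302, 1113 and 1096 normalized counts in WT against 1624, 1549 and 1528 in Pbrm1 cKO. Its groups did not overlap (1.34-fold, log2 fold change 0.42, SE 0.11, adjusted p = 0.00053), although with the length trend removed it did not pass (0.21, adjusted p = 0.173). Robo1 (chromosome 16, 72308306 to 73046095) had 155, 150 and 126 in WT against 85.8, 76.7 and 94.8 in Pbrm1 cKO, also without overlap (log2 fold change -0.75, SE 0.21, adjusted p = 0.00199). Robo4, the Robo of endothelial cells, had 23.5, 103 and 86.5 in WT against 42.4, 40.7 and 40.3 in Pbrm1 cKO and was not called (log2 fold change -0.79, SE 0.45, adjusted p = 0.182). It passed as lower without WT replicate 1 (-1.20, adjusted p = 0.000384). Robo3 had at most 2 counts in a library and was not tested.

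Levels between genes were compared as normalized counts per kilobase of exon, and so depend on the exon length that the count table gives each gene. In WT, Sema3a had the highest level of all members at 696 ± 25.6 per kb (SD, n = 3), followed by Nrp1 at 289 ± 42.0, Ephb4 at 254 ± 40.3, Plxnb2 at 242 ± 14.5 and Sema3c at 236 ± 21.2, and the last 4 lay within their spread. In Pbrm1 cKO, Sema3a stood at 804 ± 30.7 and Sema7a, at 167 ± 83.0 in WT, at 748 ± 41.6, so that they differed by less than the sum of their SDs. The summed level of classes 4 to 7 rose from 410 ± 89.7 to 1071 ± 46.8 per kb, close to the 1110 ± 35.4 of class 3. Within classes 4 to 7, Sema7a made up 39.3% ± 10.7 of the summed level in WT and 69.8% ± 0.852 in Pbrm1 cKO. The makeup of class 3 changed little, with Sema3a at 72.3% ± 2.06 in WT and 72.4% ± 0.731 in Pbrm1 cKO. The summed plexin level went from 516 ± 22.7 to 738 ± 34.3 per kb, and Plxnb2 and Plxna1 kept similar shares (46.9% and 34.3% in WT, 47.8% and 33.3% in Pbrm1 cKO). These sums and shares are descriptions without a test, because their parts were described above.

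The summed level of Eph receptors was 532 ± 80.7 per kb in WT and 386 ± 24.9 in Pbrm1 cKO. Ephb4 was its largest part (47.8% ± 0.898 and 42.7% ± 1.73), followed by Epha2 (33.3% ± 1.51 and 29.7% ± 0.500), while the share of Ephb2 was 7% ± 0.716 in WT and 15.1% ± 1.03 in Pbrm1 cKO. Ephrins summed to 489 ± 33.4 and 397 ± 5.02 per kb. The Slit sum was 23.6 ± 5.14 in WT and 42.1 ± 6.23 in Pbrm1 cKO, of which Slit2 made up 13.1% ± 6.85 and 25.0% ± 2.18. These shares depend on the exon length used, which was 25433 bases for Slit2 and 6067 for Slit3. In normalized counts Slit2 averaged 73.4 against 123 for Slit3 in WT, and 265 against 190 in Pbrm1 cKO. The Robo sum was 91.1 ± 2.80 and 105 ± 3.07 per kb, with Robo2 at 75.7% ± 7.76 and 87.6% ± 0.494 of it and Robo1 at 9.55% ± 0.847 and 4.94% ± 0.554.

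**Figure D3:**
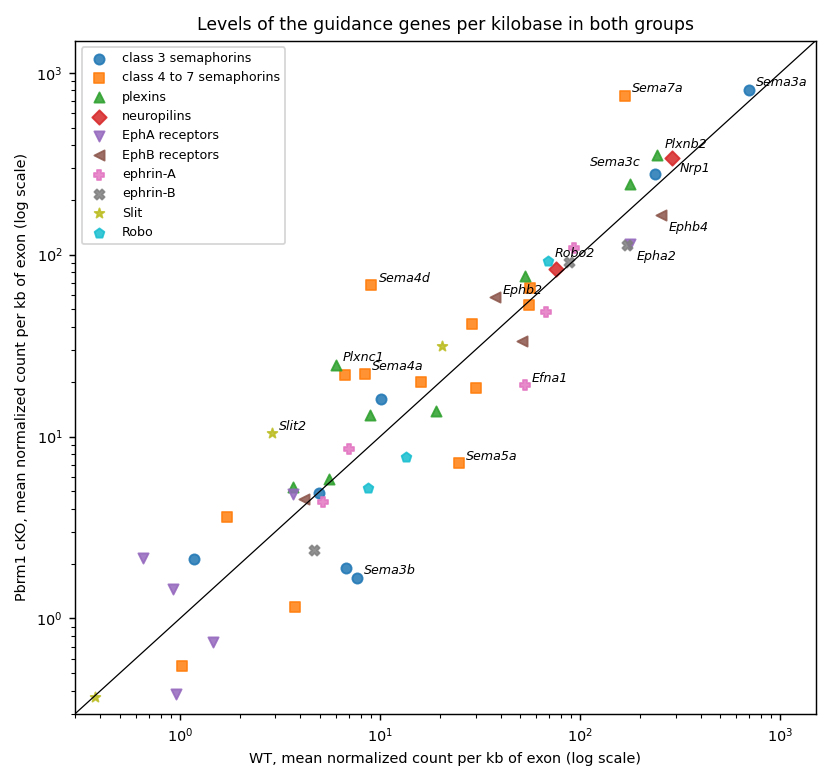
Mean normalized count per kb of exon in WT (x axis) and in Pbrm1 cKO (y axis), both on log scales, for the 54 guidance genes with at least 0.3 per kb in both groups. Symbols give the family and the line marks equal levels. Sema7a rises from 167 to 748 per kb to stand beside Sema3a (804), and Sema5a and Sema3b lie below the line.

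The cells were checked against markers of the cell types that such a preparation can hold. Stromal markers such as Vim and Col1a1 were abundant in every library (summed normalized counts 74706 to 104641), with 1 of 12 higher and 7 lower in Pbrm1 cKO. Leukocyte markers summed to 4300, 9354 and 8984 in WT against 39408, 39333 and 40680 in Pbrm1 cKO, and 13 of 14 tested were higher. The defining leukocyte gene Ptprc averaged 289 in WT and 1104 in Pbrm1 cKO. This marker sum moved in the same direction as Sema4d, Sema4a, Sema7a and Plxnc1, all of which leukocytes can express. Sema4g and Slit2 were higher as well. Within WT, Sema4d was lowest in replicate 1 like the sum (35.3, 82.1 and 90.8), as were Sema7a and Plxnc1. Sema4a was not lowest there (47, 42.2 and 46.5). The part of leukocytes in the differences of these genes was not tested. Endothelial markers summed to 1761, 5151 and 4498 in WT against 1708, 1884 and 1728 in Pbrm1 cKO, with 3 of 11 lower and 1 higher (Vwf, log2 fold change 1.90). Cdh5 (log2 fold change -1.89) had 774, 713 and 677 in WT, whereas every other marker of the list was lowest in replicate 1 among WT libraries. WT replicate 1, the lowest WT library in the endothelial, leukocyte and epithelial sums, was also low in Efna1, Robo4, Sema3g, Sema3f, Plxna4 and Epha4. In the 5 of these with a mean of at least 20, it was at 0.147 to 0.372 of the mean of the other WT libraries. By the same ratio it was low in Sema4d (0.408), Slit2, Sema6d, Sema7a and Sema6b (0.52). It was high in others, such as Ephb2 (1.48) and Efnb1 (1.47). The part of endothelial cells, pericytes, leukocytes or epithelial cells in these genes was not tested. Epithelial markers summed to 1989, 3535 and 3327 in WT and 3780 to 3954 in Pbrm1 cKO (4 of 11 tested higher), and smooth muscle markers to 55431 to 59877 in WT and 53487 to 55582 in Pbrm1 cKO (3 of 9 lower). Most of the smooth muscle sum was Tagln and Des, which averaged 30319 and 22948 in WT. Acta2 and Smtn averaged 2957 and 1204 there, and every other marker of that list at most 82.2 (Myh11). Pericyte markers summed to 2562 to 3760 in WT and 3457 to 3824 in Pbrm1 cKO, most of it Cspg4, which was higher (log2 fold change 0.37, adjusted p = 0.00314). The other 5 summed to 148, 803 and 768 in WT and 229, 284 and 246 in Pbrm1 cKO, with 1 lower (Kcnj8) and WT replicate 1 again the lowest WT library. Neural and glial markers summed to at most 20 in a library, with Th at 0 in all.

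**Figure D4:**
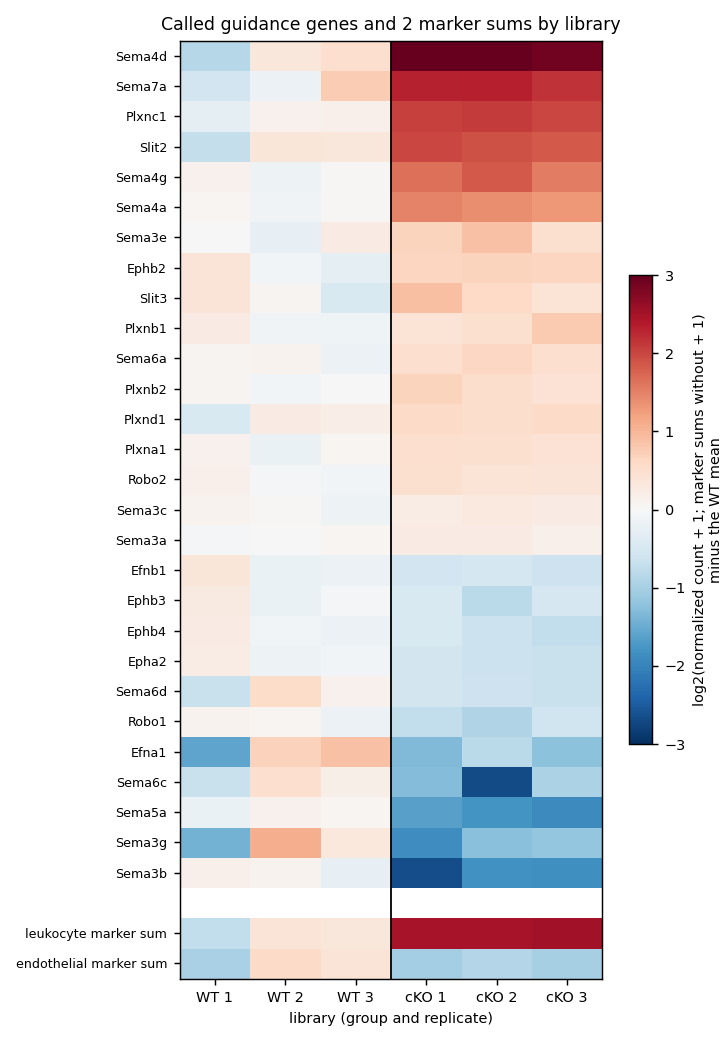
Log2 of the normalized count + 1 minus its WT mean (color, capped at 3) for the 28 called guidance genes (rows, by fold change) in the 6 libraries (columns), with the summed leukocyte and endothelial markers below. Pbrm1 cKO columns look alike, whereas WT replicate 1 is below the other WT libraries in both marker sums and in genes of both directions. Examples are Sema3g, Efna1, Sema6d and Sema6c among lower genes, and Sema4d, Slit2, Sema7a and Plxnd1 among higher genes. It is the highest WT library in others, such as Ephb2 and Efnb1.

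In the 41 members with a mean of at least 20, the highest WT library was over 2 times the lowest in 10, and in Pbrm1 cKO in 0 (median ratio 1.42 and 1.17). Of the 28 called members, 17 were called in all 6 fits that left out 1 library, 11 higher and 6 lower. They were Sema4a, Sema4d, Sema4g, Sema6a, Sema7a, Plxna1, Plxnb2, Plxnc1, Ephb2, Slit2 and Robo2, and in the lower direction Sema3b, Sema5a, Epha2, Ephb4, Efnb1 and Robo1. Without WT replicate 1 no call was lost. Without WT replicate 2, Efna1, Plxnb1, Sema3a, Sema3c, Sema3e, Sema3g, Sema6c, Sema6d and Slit3 did not pass (adjusted p 0.0846 to 0.286), and without WT replicate 3 the same except Sema3a and Sema3e (0.0632 to 0.172). Without Pbrm1 cKO replicate 1, Plxnd1 and the 9 lost without WT replicate 2 did not pass (0.0566 to 0.249). Without Pbrm1 cKO replicate 2, the 10 that did not pass were Ephb3 in place of Efna1 and otherwise the same genes (0.0622 to 0.215). Without Pbrm1 cKO replicate 3, Efna1, Plxnb1, Plxnd1, Sema3c and Sema6d did not pass (0.0696 to 0.236). Over all genes, calls also fell without WT replicate 2 or without a Pbrm1 cKO library. They were 1928 to 2219 higher and 1806 to 2030 lower, against 2774 and 2658 with all libraries.

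Of 54 listed genes that carry guidance signals inside the cell, 53 were tested, 12 were higher and 11 lower, with a median log2 fold change of -0.03. Over all tested genes 31.1% were called, and 40.5% of tested protein-coding genes with a mean of at least 20. The largest increases were in the kinase Pak1 (1.92, SE 0.22, adjusted p = 2.5e-16), the tyrosine kinase Fes that acts downstream of semaphorins (1.53, SE 0.19, adjusted p = 8.95e-14) and the actin-oxidizing enzyme Mical2 (1.15, SE 0.12, adjusted p = 7.56e-20). The largest decreases included 2 collapsin response mediator genes, whose products relay semaphorin signals to microtubules. Dpysl4 had 123, 91.0 and 81.1 normalized counts in WT and at most 1 count in each Pbrm1 cKO library, at least 36.1-fold lower when 3 counts per library are taken as the floor (adjusted p = 2.78e-10). Crmp1 had 245, 256 and 292 in WT against 44.4, 44.7 and 44.1 in Pbrm1 cKO (log2 fold change -2.57, SE 0.20, adjusted p = 2.82e-34). The kinase Pak3, a relative of Pak1, had 85.5, 133 and 116 in WT against 8.88, 19.2 and 12.2 in Pbrm1 cKO (log2 fold change -3.03, SE 0.36, adjusted p = 1.43e-15), so that Pak1 and Pak3 moved in opposite directions.

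Of 20 listed genes of other cue families (netrins, their receptors, repulsive guidance molecules and relatives), 15 were tested, 4 were higher and 2 lower, with a median of -0.10. The share called was 31.1% over all tested genes and 40.5% over tested protein-coding genes with a mean of at least 20. Ntn4, a laminin-like netrin of basement membranes, had 2439, 2667 and 2527 normalized counts in WT against 401, 384 and 341 in Pbrm1 cKO. Its groups were the most widely parted of this list (log2 fold change -2.76, SE 0.11, adjusted p = 1.03e-143). Ntng2 was also lower (-1.25, SE 0.44, adjusted p = 0.0165). The repulsive guidance molecules Rgma and Rgmb (0.94, SE 0.17, adjusted p = 6.57e-07, and 0.88, SE 0.16, adjusted p = 9.07e-07) and the adhesion molecule Flrt2 (0.87, SE 0.15, adjusted p = 5.62e-08) were higher. The netrin receptor gene Dcc had no count in any library.

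Gene length differed among the groups of members. The median exon length of the 53 tested members was 6855 bases, against 3686 over all tested genes. It was 4570 over tested protein-coding genes with a mean of at least 20 normalized counts. Among members it was 8349 in the 17 higher and 4777 in the 11 lower. The part of length in their differences was not tested beyond the removal of its trend given above.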

How the data were processed

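RNA-seq libraries of primary uterine stromal cells from 3 WT and 3 Pbrm1 cKO samples were grouped by the labels. The authors trimmed reads with cutadapt, mapped them to GRCm38 with HISAT2 and deposited the raw count of each gene per library from featureCounts 1.6.4 (reverse-stranded, GENCODE M18), without normalization. The labels describe random and poly(T) priming with transcript depletion, the study poly(A) selection, so the RNA classes captured are not settled. Symbols came from GENCODE M21 for 54165 of 54232 identifiers (99.9%), and coordinates from the count table. Promoter windows came from RefSeq (GRCm38.p6) and matched 53 members.

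Raw counts were fitted with DESeq2 1.42.0 under R 4.3.3 (Wald statistics, no covariates, all genes with a count, Benjamini-Hochberg adjustment over all tested genes, threshold 0.05), and adjusted p-values are from it. The procedure was tested on simulated data with the same spread in both groups, so the unequal spread of these groups was not covered. Alternatives were edgeR 4.0.16, limma 3.58.1 voom, other scaling, filters and thresholds, removal of the length trend, a replicate block and leaving out each library. Depth gave a floor of 3 counts, or 0.164 to 0.226 CPM, for counting error only.

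Values per library were given for up to 10 called members at each end of the ranking by log2 fold change, given a mean of at least 20 normalized counts (10 higher, 9 lower), and for the member with the highest WT level per kb in each family. From each list of other genes at most 3 called genes at each end were named. Other per-library values (Sema3d, Sema3f, Sema3g, Sema6c, Plxna4 and Robo4) were added after they were seen. The members and lists were chosen with earlier results of these data known. Ntn3 of the other cue list was not matched to an identifier.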

Additional observations from a re-analysis of the deposited data

How the results depend on the processing

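Against the 17 higher and 11 lower members of DESeq2, the alternatives kept the direction of each of the 24 members whose values the naming rule asks for. Efnb2, outside that rule and not called (0.05), was at -0.04 with the length trend removed or without WT replicate 1, and at -0.12 without WT replicate 2. Testing for a log2 change beyond 0.58 in size, with adjusted p under 0.1, left 6 higher and 2 lower members (Sema4a, Sema4d, Sema4g, Sema7a, Plxnc1 and Slit2, and Sema3b and Sema5a). Over all genes that test left 699 higher and 563 lower, against 2774 and 2658 in the main fit. Leaving out 1 library gave 11 to 18 higher and 7 to 12 lower members, and over all genes 1928 to 2915 higher and 1806 to 2648 lower. The median log2 fold change over tested members was 0.223, with 0.104 to 0.217 when 1 library was left out and 0.120 with the length trend removed, and the cause was not tested. That correction moved the median of all tested genes to -0.022. edgeR called 19 higher and 11 lower members, adding Efnb3, Sema3d and Sema4f and losing Sema6d, and limma voom 17 and 10. In 14 of the 15 alternatives, all but the test against 0.58, 16 members were called each time, 10 higher and 6 lower.

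No pairing by replicate number was seen: deviations of same-numbered libraries correlated at -0.039 to 0.040, and 2 of 6 libraries correlated best with their own number. With 3 libraries per group, these correlations cannot exclude a weak pairing. A fit with the replicate block called 13 higher and 8 lower members, and 2175 higher and 1828 lower over all genes. Depth limits the 7 members that were not tested and those with under about 20 normalized counts.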
